A study of Mus musculus with 8 samples.

Results

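In uterine stromal cells of D4 mice, 2679 sites were called as bound by PBRM1 in the pooled ChIC-Seq data and in at least 1 replicate while no pooled BRG1 peak touched them. PBRM1 (BAF180) is the subunit that defines the PBAF form of the SWI/SNF chromatin remodeler and carries bromodomains that read acetylated histones, and BRG1, the product of *Smarca4*, is an ATPase that powers the complex. A PBRM1 peak without BRG1 is therefore a place where the reader subunit had a peak call and that motor had none in the pooled list. The sites were chosen by measured values, namely the peak calls of both antibodies. A pooled PBRM1 peak on chromosomes 1 to 19 entered when it overlapped, by 1 bp or more, a peak in 1 or more of the 3 PBRM1 replicates and no peak of the pooled BRG1 list. Of 54164 pooled PBRM1 peaks on these chromosomes, 31985 had such replicate support, and the 2679 sites were 8.38% of those. The other 29306 supported peaks overlapped a BRG1 peak and are called shared peaks.

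The cells were primary stromal cells from the uterine horns of WT mice aged 8 to 12 weeks, taken on D4, when the stroma is under P4 and the uterus is becoming receptive to the embryo. Each preparation pooled 5 to 10 horns, the labels call the animals both pregnant and pseudopregnant, and no group carried a treatment or an altered allele. Each antibody had 3 libraries of 50000 cells fixed for 5 minutes by the labels, whereas the methods give more cells and a longer range of fixation, and 2 IgG libraries were not analysed here. In ChIC-Seq an antibody tethers micrococcal nuclease to its antigen, and the released fragments are sequenced. The study calls the replicates biological, and the labels do not say whether they came from separate animals, so that p-values measure the spread between these libraries, which may in part be technical. The PBRM1 libraries held 8868777, 12770092 and 16505239 fragments and the BRG1 libraries 11506964 to 14595089, and peaks were called without a control at a q-value of 0.05. Promoter peaks, which are not expression, were counted within 2000 bp of a TSS at marker genes. All 3 PBRM1 replicates had one at 7 of 13 stromal markers, 2 of 11 epithelial, 1 of 4 smooth muscle, 1 of 5 endothelial and 0 of 6 immune markers. All 3 BRG1 replicates had one at 10, 6, 2, 3 and 0 of the same lists.

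Only 3 sites were found in all 3 PBRM1 replicates, and the sequences of a pair of them are shown first because these were the most repeatable of the PBRM1 peaks without BRG1. Each sequence holds the pooled summit with 75 bp to either side, read from the plus strand of the RefSeq GRCm38 (mm10) genome, with CpG dinucleotides in capitals.
Intron of *Emp2*, chr16:10286693-10286843: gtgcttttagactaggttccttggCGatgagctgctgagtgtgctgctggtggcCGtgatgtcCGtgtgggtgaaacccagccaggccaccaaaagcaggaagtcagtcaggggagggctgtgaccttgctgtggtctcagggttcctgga
Intergenic, nearest TSS *Tagap*, chr17:7876676-7876826: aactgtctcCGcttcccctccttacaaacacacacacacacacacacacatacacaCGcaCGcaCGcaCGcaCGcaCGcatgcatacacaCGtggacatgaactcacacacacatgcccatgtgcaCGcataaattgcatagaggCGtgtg
In the *Emp2* intron the longest stretch in which purine and pyrimidine alternated was 6 bases within 150 bp to either side of the summit, here called the summit window. The site near *Tagap* held a long run of alternating bases, of CA, TG and CpG steps, of 67 bases.

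The site in the intron of *Emp2* (chr16:10286666-10287023), a gene for an epithelial membrane protein, lay 12916 bp from its nearest TSS, that of the small RNA gene *Gm22932*. Its fold enrichment over the local background was 4.47 in replicate 1, 6.45 in replicate 2, 5.30 in replicate 3 and 7.22 in the pooled list. The replicates' own peaks covered its summit, the next pooled BRG1 peak was 5826 bp away, and BRG1 replicate 1 had a peak of 3.25 at −850 to −695 bp from the summit that the pooled list lacked. The site nearest *Tagap* (chr17:7876618-7876873), a gene for a GTPase-activating protein of T cells that began 49127 bp away, had a fold enrichment of 8.23, 4.39 and 3.72 in replicates 1, 2 and 3 and 5.82 in the pooled list. Its pooled pileup of 70 fragments stood on a local background of 12.2 fragments. A pooled BRG1 peak, with a fold enrichment of 3.64, began 154 bp from its edge, and no BRG1 replicate had a peak there. No BRG1 replicate had a peak on either site.

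**Figure D1:**
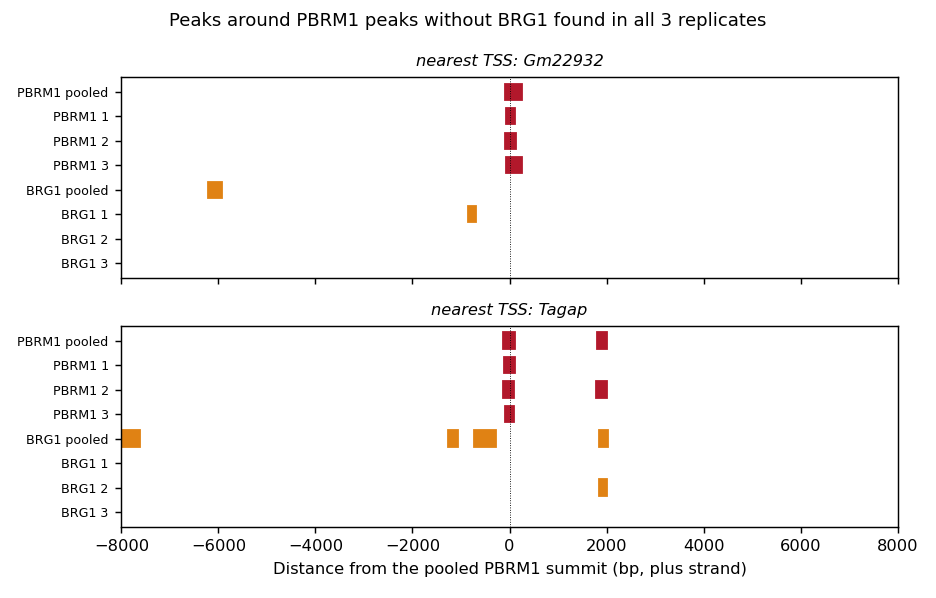
Peaks of the 8 lists (pooled and replicates 1 to 3 of PBRM1 in red, the same for BRG1 in orange) around 2 of the 3 sites found in every PBRM1 replicate, by distance in bp from the pooled PBRM1 summit. All 4 PBRM1 lists hold a peak at the summit and no BRG1 list does; the nearest pooled BRG1 peak is 5826 bp away in the upper panel and 154 bp away at the site near *Tagap*.

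Of the 4 sites with the highest pooled fold enrichment among the rest, 3, each with 2 supporting replicates, are printed beside the strongest shared promoter peak with 1 supporting replicate, near *Rasa2*.
Without BRG1, intron of *Nupl1*, nearest TSS *Atp8a2*, chr14:60204913-60205063: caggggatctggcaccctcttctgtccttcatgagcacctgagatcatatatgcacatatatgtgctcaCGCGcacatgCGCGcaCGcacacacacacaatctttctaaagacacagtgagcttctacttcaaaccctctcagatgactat
Without BRG1, intron of *Kif5c*, chr2:49764797-49764947: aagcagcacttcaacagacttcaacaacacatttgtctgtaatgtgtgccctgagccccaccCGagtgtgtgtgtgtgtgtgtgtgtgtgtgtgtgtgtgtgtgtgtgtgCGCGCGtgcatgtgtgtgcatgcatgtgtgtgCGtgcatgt
Without BRG1, promoter of the pseudogene *Gm7688*, chr8:69329030-69329180: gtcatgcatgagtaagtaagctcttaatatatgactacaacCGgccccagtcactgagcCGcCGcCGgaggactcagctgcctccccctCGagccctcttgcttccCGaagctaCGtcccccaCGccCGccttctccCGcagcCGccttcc
With BRG1, 822 bp from the TSS of *Rasa2*, chr9:96544151-96544301: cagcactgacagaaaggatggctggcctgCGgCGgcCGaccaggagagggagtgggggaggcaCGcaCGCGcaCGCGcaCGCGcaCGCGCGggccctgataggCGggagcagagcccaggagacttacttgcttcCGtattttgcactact
The longest alternating stretch in the summit window was 32 bases at the *Atp8a2* site, 95 bases at *Kif5c* and 8 bases at *Gm7688*. It was 31 bases at the shared peak near *Rasa2*, whose pooled fold enrichment was 15.8.

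The pooled fold enrichment reached 7.93 at the site nearest *Atp8a2* (chr14:60204843-60205147), a phospholipid flippase gene, although the summit lay inside an intron of *Nupl1*, which encodes a nucleoporin. It was 7.12 in replicate 1 and 5.86 in replicate 2, with no peak in replicate 3, and the next BRG1 peak was 11332 bp away. In *Kif5c*, a kinesin heavy chain gene, the site (chr2:49764787-49765021) had 7.61 in the pooled list, 6.75 in replicate 2 and 5.75 in replicate 3, with no peak in replicate 1 and BRG1 at 19083 bp. The site on the TSS of *Gm7688* (chr8:69328752-69329261) had 7.46 in the pooled list, 7.72 in replicate 1 and 4.81 in replicate 3. BRG1 replicate 3 had a peak there too, of 5.68, which the pooled BRG1 list did not hold. The remaining sites among the 10 strongest, with pooled values of 6.86 to 7.46, lay near the olfactory receptor pseudogene *Olfr879-ps1*, in introns of *Bcas3*, *1600002D24Rik* and *A530021J07Rik*, and in intergenic DNA nearest *Rph3al* and *Gm22696*. Only 1 of the 10 strongest was at a promoter, and 2 of them, nearest *Gm37259* and *Gm22696*, rested on 1 replicate.

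Strength and replicate support chose the sites, so the following values are a description. Most sites were weak and found once. A peak in exactly 1 replicate supported 2544 sites, in 2 replicates 132 and in all 3 only 3. Replicate 2 alone supported 1145 sites, replicate 3 alone 809 and replicate 1 alone 590. The sites made up 20.2% of the 12563 peaks with 1 supporting replicate, 2.17% of the 6070 with 2 and 0.0225% of the 13352 with 3. Their pooled fold enrichment had a median of 3.60, from 1.99 to 7.93, their −log10 q-value a median of 4.48 and their pileup a median of 17 fragments. They made up 30.5% of the supported peaks with a fold enrichment under 3, 19.8% of those from 3 to 4, 7.86% of those from 4 to 5 and 0.245% of those at 6 or more. Their width ran from 182 to 975 bp with a median of 272 bp. Because 29306 shared peaks had a median fold enrichment of 5.11 and a width of 583 bp, the comparisons below use the 10019 shared peaks that, like most of the sites, had exactly 1 supporting replicate. These had a median fold enrichment of 3.92, a −log10 q-value of 6.48 and a width of 372 bp.

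**Figure D2:**
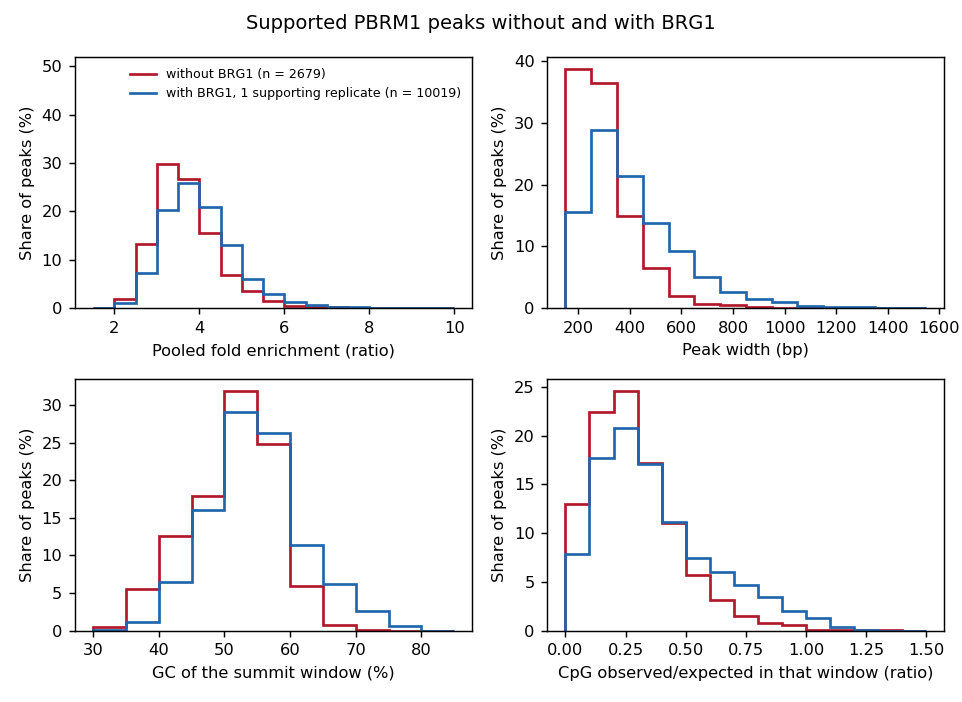
Distributions of pooled fold enrichment (ratio), peak width (bp), GC content (%) and CpG observed/expected ratio for the 2679 supported PBRM1 peaks without BRG1 (red) and the 10019 shared peaks with 1 supporting replicate (blue), as a percent of peaks in each bin. Peaks without BRG1 were narrower, with a median of 272 against 372 bp, and their CpG ratio lay lower, with a median of 0.257 against 0.320.

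The fragments at a site came in large part from the library that supported it, as they must where the peak was called in that library alone. Replicate 1 held 23.3% of the pooled PBRM1 fragments, and at the sites it alone supported its own pileup had a median of 43.8% of the pooled pileup. For replicate 2 these values were 33.5% and 53.8%, and for replicate 3 they were 43.3% and 60.0%. Shared peaks with the same single support had 40.0%, 48.3% and 52.9% in replicates 1, 2 and 3. Within a replicate's own list, ranked by fold enrichment, the sites that it alone supported stood low. Their median percentile was 19.7, 23.0 and 26.1 in replicates 1, 2 and 3. Shared peaks with the same single support stood low too, at 23.1, 27.6 and 27.6. Where 2 replicates supported a site, their summits were a median of 72 bp apart over 132 sites, against 71 bp over 5938 shared peaks.

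Most of the sites had a pooled BRG1 peak within 10000 bp, as did the PBRM1 peaks without BRG1 that no replicate supported. The pooled BRG1 list held 82669 peaks over all chromosomes, and the distance from places spaced along the genome was not measured. The gap from a site to the next pooled BRG1 peak had a median of 4601 bp, with quartiles at 840 and 11850.5 bp. Within 1000 bp of a BRG1 peak lay 728 sites (27.2%, 95% Wilson interval 25.5 to 28.9), within 10000 bp 71.0%, and over 100000 bp away 63 sites (2.35%). Pooled PBRM1 peaks without BRG1 that no replicate supported were 24.6% within 1000 bp and 70.9% within 10000 bp, over 8963 peaks. The BRG1 neighbors within 1000 bp had a median fold enrichment of 3.99, and all pooled BRG1 peaks had 4.28. At the edge of the rule, 58 sites missed BRG1 by 50 bp or less, with a median fold enrichment of 3.56, and 74 supported peaks overlapped it by 50 bp or less, with 3.45. Of the 2679 sites, 105 overlapped a peak in 1 BRG1 replicate list that the pooled list lacked, 29 in replicate 1, 34 in replicate 2 and 42 in replicate 3, and 0 overlapped a peak in 2 or 3 of them. A pooled PBRM1 peak that overlapped BRG1, with or without replicate support, lay within 10000 bp of 1195 sites (44.6%). Another of the sites lay that near to 116 (4.33%). The sites are by far the smaller set, so these 2 shares are not on an equal footing.

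Among the sites supported by 2 or more replicates, the nearest to BRG1 were 8 bp from it near *Rph3al*, 24 bp near *Eif4a2*, a translation initiation helicase gene, 28 bp in *Abcb5*, a transporter gene, 45 bp in *Galnt9*, a glycosyltransferase gene, and 50 bp at the TSS of *Rassf2*. The pooled fold enrichment of these 5 ran from 3.54 at *Galnt9* to 6.94 near *Rph3al*. The farthest were 92201 bp away in *Gm14064*, 149283 bp near *Olfr879-ps1*, 149552 bp in intergenic DNA nearest *Gm23503*, 188708 bp at *Cldn8* and 277775 bp near *Gm22389*. Except at *Cldn8*, none of these 5 was at a promoter.

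**Figure D3:**
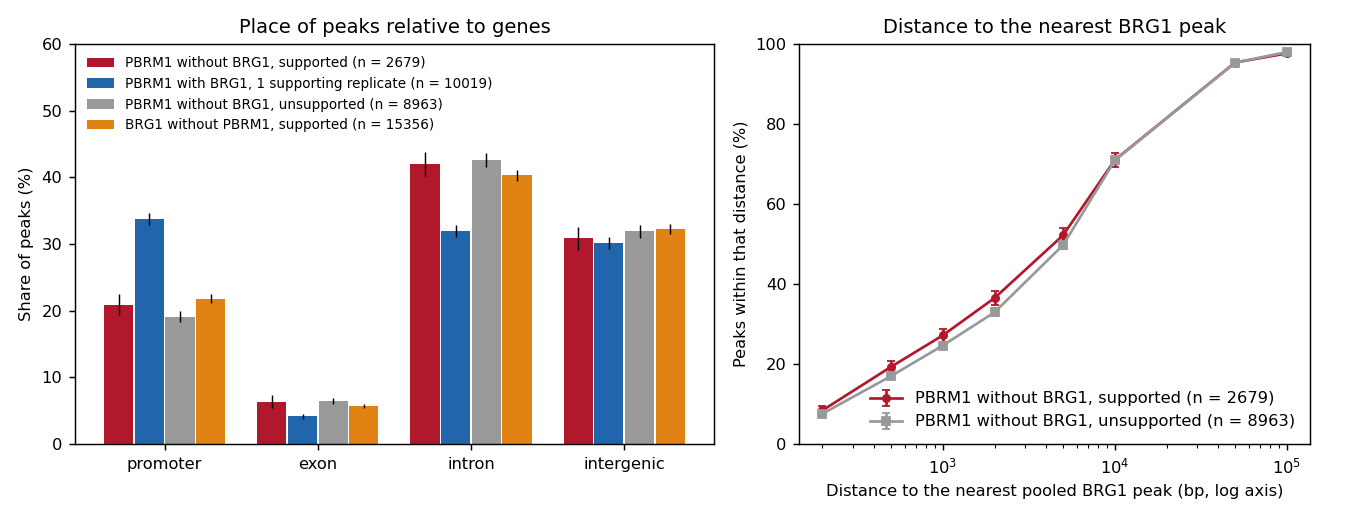
Left, share of peaks (%) at promoters, in exons, in introns and between genes for supported PBRM1 peaks without BRG1 (red), shared peaks with 1 supporting replicate (blue), unsupported PBRM1 peaks without BRG1 (gray) and supported BRG1 peaks without PBRM1 (orange), with 95% Wilson intervals. Right, cumulative share of PBRM1 peaks without BRG1 by distance to the nearest pooled BRG1 peak on a log axis; 71.0% of the supported and 70.9% of the unsupported peaks lay within 10000 bp.

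PBRM1 peaks without BRG1 lay mostly in introns and between genes. Of the 2679 sites, 1125 (42.0%) were in introns, 826 (30.8%) intergenic, 559 (20.9%, interval 19.4 to 22.4) at promoters, meaning within 2000 bp of a TSS, and 169 (6.31%) in other exonic sequence. Shared peaks with 1 supporting replicate had 33.7% at promoters and 32.0% in introns. BRG1 peaks without PBRM1 that had replicate support, 15356 in number, had 21.8% at promoters and 40.3% in introns. Sites within 1000 bp of BRG1 were at promoters in 30.2% of cases, sites 1000 to 10000 bp away in 19.2% and sites farther off in 14.7%. These intervals and shares cover counting error only.

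Place was compared within each PBRM1 library, over peaks that only that library supported. The rule did not name place, but it left out every peak that touched a pooled BRG1 peak. Such BRG1 peaks lay within 2000 bp of a TSS at 73.7% of protein-coding genes, so place is not independent of the rule. How far the rule itself lowers the promoter share of the sites was not tested. At promoters lay 22.0%, 21.05% and 18.5% of the sites in replicates 1, 2 and 3, against 43.8%, 33.9% and 24.3% of the shared peaks. Every library had fewer promoter peaks among the sites, and the 2 sets of values did not overlap. The difference, sites minus shared peaks, was −13.5 percentage points ± 8.05 (SD of the differences, n = 3; two-sided exact sign-flip permutation test, p = 0.25, the smallest that 3 libraries can give, adjusted p = 0.3125 over 5 measures). The gap narrowed from replicate 1, the shallowest library, where it was −21.8 points, to −5.74 points in replicate 3, the deepest, with −12.9 in replicate 2. Whether depth takes part in it was not tested. With both sets limited to a fold enrichment under 4 the difference was −15.0. Classes of fold enrichment were under 3, 3 to 3.5, 3.5 to 4, 4 to 5 and 5 or more. In that order, the sites with 1 supporting replicate had 29.2%, 18.7%, 19.1%, 19.7% and 14.5% at promoters. Shared peaks had 51.3%, 35.3%, 32.1%, 30.2% and 32.2%. The median distance to a TSS was 8756, 9521 and 10856 bp for the sites and 3750, 6324.5 and 9009 bp for the shared peaks, a difference of 3350 bp ± 1585 (SD, n = 3; exact p = 0.25, adjusted 0.3125). It too had the same sign in 3 of 3 libraries, while the values of the 2 sets overlapped. The intergenic share was 30.3%, 28.2% and 34.4% for the sites and 24.2%, 29.7% and 36.1% for the shared peaks, and it was higher among the sites in replicate 1 only (exact p = 1).

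No difference in place was detected between PBRM1 peaks without BRG1 and BRG1 peaks without PBRM1. The latter, over peaks with 1 supporting BRG1 replicate, lay at promoters in 21.6%, 20.3% and 19.7% of cases in BRG1 replicates 1, 2 and 3. The difference, PBRM1 minus BRG1, was 0.010 percentage points, less than the SD of 1.80 among the PBRM1 values and of 0.934 among the BRG1 values (two-sided exact permutation test, p = 1, where 0.1 is the smallest that 3 libraries against 3 can give). The intergenic share differed by −1.45 points (exact p = 0.6), the median TSS distance by 82.7 bp (exact p = 0.9) and the median GC by 0.886 points (exact p = 0.7). With 3 libraries a side, these p-values do not show that the sets are alike. BRG1 peaks without PBRM1 also lay at promoters less often than BRG1 peaks with PBRM1, with differences of −5.04, −6.47 and −7.01 points in the 3 BRG1 libraries. The mean difference for PBRM1 less that for BRG1 was −7.29 points (two-sided exact permutation test, p = 0.3).

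**Figure D4:**
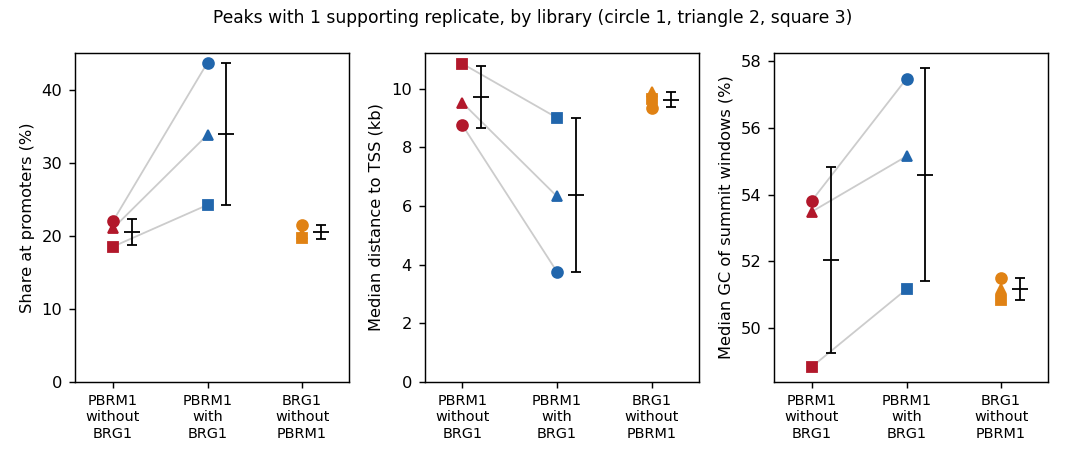
Share at promoters (%), median distance to the nearest TSS (kb) and median GC of summit windows (%) for peaks with exactly 1 supporting replicate, with 1 point per library (circle, triangle and square for replicates 1, 2 and 3), lines joining the same PBRM1 library, and black bars at the mean ± SD (n = 3). In every PBRM1 library the peaks without BRG1 had fewer promoters (18.5% to 22.0%) than those with BRG1 (24.3% to 43.8%), and BRG1 peaks without PBRM1 lay between 19.7% and 21.6%.

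At promoters, fewer of the sites than of the shared peaks with 1 supporting replicate overlapped the start site. Over all places those shared peaks were wider, with a median of 372 against 272 bp. A site also could not touch a pooled BRG1 peak, by the rule. How far width and the rule lower the overlap with start sites was not tested. Of the 559 promoter sites, 105 (18.8%, interval 15.8 to 22.2) overlapped a TSS, against 38.3% of 3380 shared promoter peaks, and the median gap to the TSS was 530 bp against 131.5 bp. A CpG observed/expected ratio of 0.6 or more, as in CpG islands, was found in the summit windows of 12.5% of the promoter sites and 39.9% of the shared promoter peaks. Protein-coding genes were the nearest to 366 (65.5%) of the promoter sites and 75.7% of the shared ones. Over all places, windows with such a CpG ratio were 6.20% of the sites, 18.0% of the shared peaks and 4.70% of the unsupported PBRM1 peaks without BRG1. The median GC of the summit windows was 53.8%, 53.5% and 48.8% for sites of replicates 1, 2 and 3 and 57.5%, 55.1% and 51.2% for shared peaks, a difference of −2.55 points ± 1.01 (SD, n = 3; exact sign-flip p = 0.25, adjusted 0.3125). Windows of which 50% or more was repeat-masked made up 3.99% of the sites, 1.65% of the shared peaks and 4.22% of the unsupported peaks.

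The alternating stretches seen at the strongest sites were then counted over all of them, a measure chosen after those sequences were seen. A stretch of 20 or more bases in which purine and pyrimidine alternate lay in the summit window of 175 of 2679 sites (6.53%, interval 5.66 to 7.53), of 5.77% of the unsupported PBRM1 peaks without BRG1, of 5.98% of the BRG1 peaks without PBRM1, of 3.32% of the shared peaks with 1 supporting replicate and of 5.79% of 11978 windows spaced every 200000 bp along the chromosomes. Its share grew with the pooled fold enrichment of the site. It was 2.70% of 407 sites under 3, 3.96% of 1514 from 3 to 4, 10.3% of 600 from 4 to 5, 23.5% of 132 from 5 to 6, and 11 of 26 (42.3%, interval 25.5 to 61.1) at 6 or more. Shared peaks with 1 supporting replicate went from 1.20% under 3 to 18.9% of 259 at 6 or more. The classes of sites also hold those with 2 or 3 supporting replicates, so these series are not matched for support. The 26 sites include those nearest *Atp8a2* and in *Kif5c*, whose sequences were among those that had prompted the measure. The fold enrichment of BRG1 peaks without PBRM1 is on its own scale. Those BRG1 peaks had 3.96% under 3, 4.72% from 3 to 4 and 6.06% from 4 to 5. Their share was 9.75% of 2175 from 5 to 6 and 7.05% of 1234 at 6 or more. Among sites with 2 or 3 supporting replicates the share was 13.3% (18 of 135), and with 1 it was 6.17%. At a fold enrichment of 4 or more, sites of replicates 1, 2 and 3 alone had 13.4%, 17.3% and 7.76%, and shared peaks of the same libraries 5.06%, 5.65% and 4.22%, higher among the sites in each library. Runs of 10 or more CA or TG repeats, which are part of these stretches, lay in 3.58% of the sites, 2.04% of the shared peaks, 4.01% of the BRG1 peaks without PBRM1 and 2.95% of the spaced windows. At a fold enrichment of 6 or more, such runs lay in 3 of 26 sites (11.5%, interval 4.00 to 29.0). Of the shared peaks of that strength with 1 supporting replicate, 29 of 259 (11.2%) held one. With so few windows among the sites, these shares do not show whether the runs were equally frequent.

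**Figure D5:**
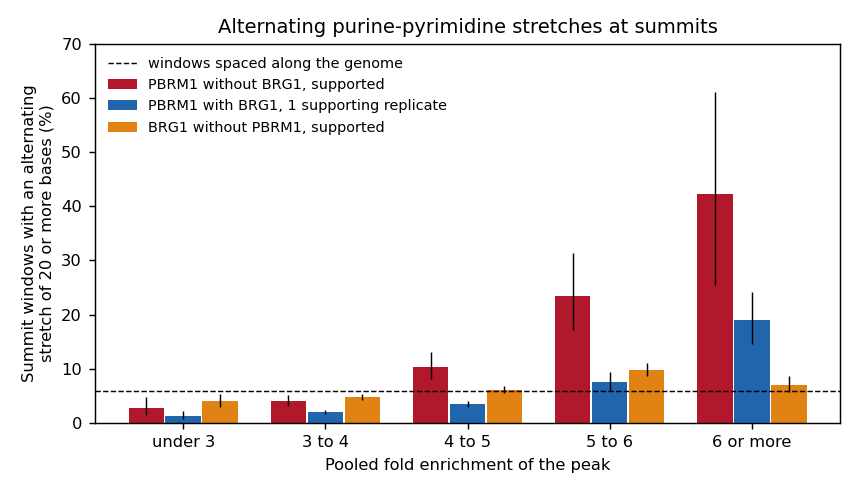
Share of summit windows (150 bp to either side of the summit, in %) with an alternating purine-pyrimidine stretch of 20 or more bases, by pooled fold enrichment, for supported PBRM1 peaks without BRG1 (red), shared peaks with 1 supporting replicate (blue) and supported BRG1 peaks without PBRM1 (orange), with 95% Wilson intervals; the dashed line is the 5.79% of windows spaced along the genome. The share among peaks without BRG1 goes from 2.70% under a fold enrichment of 3 to 42.3% at 6 or more, where only 26 peaks stand. Red and orange bars hold any number of supporting replicates and blue bars exactly 1.

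Short motifs were counted on both strands of the same windows, as exact letters except for TGANTCA and the CTCF core. The N of TGANTCA was not a fixed base, and the CTCF core was matched as a pattern whose letters are not given here. A match is not a binding site. The study drew 4 strings from its ChIC-Seq peaks. The first, CCAGGGCCT, lay in 1.01% of the sites, 1.43% of the shared peaks with 1 supporting replicate and 0.442% of the spaced genome windows. TCCCAG lay in 33.6% of the sites, 38.7% of those shared peaks and 24.2% of the genome windows. For GACCACT the shares were 2.95%, 3.24% and 2.87%. For TCGGTG they were 5.41%, 6.82% and 2.49%. The GC box GGGCGG, the letters that SP factors read, was in 9.15% of the sites (interval 8.11 to 10.3), 21.2% of those shared peaks and 3.01% of the genome windows. The AP-1 site TGANTCA lay in 13.1% of the sites, 12.6% of the shared peaks, 12.8% of the BRG1 peaks without PBRM1 and 8.87% of the genome windows. AGATAA, read by GATA factors, was in 12.7% of the sites, 9.36% of the shared peaks and 19.7% of the genome windows. GGAATG, read by TEAD factors, was in 16.9% of the sites, 16.4% of the shared peaks and 15.7% of the genome windows. TGTTCT, part of the P4 receptor element, was in 22.9%, 20.9% and 25.7% of these sets, and the CTCF core in 1.64%, 2.31% and 0.150%.

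The sites were spread over many genes. Their nearest TSS belonged to 2459 genes, of which 2269 had 1 site, 27 had 3 or more and 2 had 4 or more. The nearest gene was protein-coding for 1495 sites (55.8%), a lincRNA gene for 318 (11.9%) and a processed pseudogene for 305 (11.4%). The lincRNA gene *4930552P12Rik*, which lies between *Vti1a* and the WNT effector gene *Tcf7l2*, was nearest to 5 sites, spread from 11786 to 103970 bp from its TSS. Their pooled fold enrichment ran from 2.76 to 4.45, and each had 1 supporting replicate, replicate 1 for 4 of them. *Rere*, which encodes a nuclear corepressor, held 4 sites within its body, with values from 3.15 to 4.05, supported by replicate 2 in 3 cases and replicate 3 in 1. By chromosome the sites were 6.95% (chromosome 11) to 9.75% (chromosome 13) of the supported peaks, with a median of 8.84%.

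A site lay within 2000 bp of a TSS of 388 protein-coding genes, 1.86% of the 20807 on these chromosomes. The start of every annotated transcript counted as a TSS, also one inside a gene. A promoter site therefore need not lie at the main start of its gene, and the distance to BRG1 is that of the site alone. At 334 of the 388 (86.1%) a pooled BRG1 peak lay within 2000 bp of a TSS of the same gene as well, as it did at 73.7% of all protein-coding genes, and 54 had none. The strongest promoter sites with 2 or more supporting replicates, besides that of *Gm7688*, were at *Cldn8*, *Ccdc73*, *Shroom3*, *Gm48719*, *Gm15935* near *Dusp13*, *Pecam1*, *Ndst1*, *Iqgap1* and *Slc17a4*. *Cldn8* encodes a claudin of tight junctions, and its site (chr16:88562388-88563236) covered the TSS, with a fold enrichment of 4.58 in replicate 1, 5.86 in replicate 2, no peak in replicate 3 and 5.94 in the pooled list. *Shroom3*, an actin-binding regulator of cell shape, had 7.31 in replicate 1, 4.27 in replicate 2, no peak in replicate 3 and 5.13 pooled, 4 bp from a TSS and 17184 bp from BRG1. *Iqgap1*, a scaffold of the actin cytoskeleton, had no peak in replicate 1, 3.77 in replicate 2, 4.74 in replicate 3 and 4.77 pooled. This site lay 19 bp from a TSS, with BRG1 at 15102 bp. The summits at *Shroom3*, *Iqgap1* and *Ndst1* lay within the bodies of these genes, and whether the starts they mark are the main ones was not examined. *Slc17a4*, an anion transporter gene, had 3.87 and 4.80 in replicates 1 and 2 and BRG1 at 19498 bp. At *Ndst1*, a heparan sulfate sulfotransferase gene, the values were 4.95 and 5.17 in replicates 1 and 2, and BRG1 lay 1597 bp away. *Pecam1*, an endothelial adhesion gene, had 6.03 and 4.65 in replicates 1 and 2, 60 bp from a TSS, with BRG1 at 724 bp. Of these 10 promoter sites, those of *Gm48719*, *Pecam1*, *Ccdc73* and *Ndst1* had a pooled BRG1 peak within 2000 bp.

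Genes of uterine function were then counted by lists that were drawn up with earlier results known. A site lay within 2000 bp of a TSS of 2 of 50 genes of P4 signaling and implantation (*Dio2* and *Gli1*), 1 of 19 FGF ligands and receptors (*Fgf21*), 2 of 29 extracellular matrix genes (*Col3a1* and *Mmp14*), 0 of 22 cytoskeleton and adhesion genes, 0 of 22 AP-1 and immediate early genes and 0 of 29 SWI/SNF subunit genes. Against the 1.86% of all protein-coding genes these were 4%, 5.26%, 6.90% and 0% of the lists, each resting on 2 genes or fewer. The same lists had a supported shared peak at a promoter of 44 of 50, 17 of 19, 25 of 29, 21 of 22, 22 of 22 and 29 of 29 genes. As the gene of the nearest TSS, whatever the distance, 6.47% of all protein-coding genes had a site, as did 5 of the P4 genes (*Dio2*, *Esr1*, *Gli1*, *Ncoa1* and *Pla2g4a*), 6 of the extracellular matrix genes (*Col15a1*, *Col3a1*, *Col6a2*, *Eln*, *Mmp14* and *Mmp2*), 2 of the cytoskeleton genes (*Cd44* and *Myh9*), *Fosl2* of the AP-1 list, *Bicra* of the SWI/SNF list and 0 of the FGF genes. Among the marker lists a promoter site was at *Col3a1* of the stromal and *Pecam1* of the endothelial genes and at 0 epithelial, smooth muscle or immune markers, and the nearest-gene count added *Krt18* and *Csf1r*.

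Besides *Pecam1*, the listed genes with a promoter site were the following. *Dio2*, the deiodinase that activates thyroid hormone, had a site 460 bp from its nearest TSS (chr12:90738898-90739189) with 3.21 in the pooled list, 3.46 in replicate 3 and no peak in replicates 1 and 2. The next pooled BRG1 peak was 614 bp away. A second PBRM1 peak at *Dio2* (chr12:90737848-90738184) was shared with BRG1, with 4.15 in the pooled list, 4.28 and 5.66 in replicates 1 and 2 and no peak in replicate 3, so that the replicates marked different places of the same promoter. *Gli1*, the hedgehog effector, had 4.01 in replicate 3 only and 2.87 pooled, with BRG1 at 1084 bp. *Col3a1*, which encodes a fibrillar collagen, had 3.45 in replicate 3 only and 2.91 pooled, with BRG1 at 215 bp. *Mmp14*, a membrane metalloproteinase gene, had 3.18 in replicate 3 only and 3.14 pooled, with BRG1 at 368 bp. The site near *Fgf21* covered the TSS of the neighboring *Fut1*, with 4.36 in replicate 2 only, 4.92 pooled, a peak of 5.79 in BRG1 replicate 3 and a pooled BRG1 peak at 491 bp. Thus 4 of these 5 rested on replicate 3 alone, and all 5 had a pooled BRG1 peak no farther away than the 1084 bp at *Gli1*.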

How the data were processed

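Per the labels and methods, the authors trimmed reads with cutadapt, mapped them to mm10 with Bowtie2, dropped duplicates and poorly mapped pairs, and ran MACS 2.2.7.1 on every replicate and on the merged replicates of an antibody. Per the file headers, no control entered, the q-value limit was 0.05 and the background was taken over 10000 bp. The deposited lists give the length of each peak, its pileup signal in fragments, a −log10 q-value and a fold ratio over the local background. Values of different lists are not on one scale, because depth differed, and the pooled lists reach weaker peaks than the replicates. Without a control, a peak cannot be told apart from open chromatin or from DNA that is cut or mapped well whatever the antibody.

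Peaks were intersected in Python 3.11.15 with pandas 2.3.3, scipy 1.17.1 and pysam 0.24.0, and bedtools 2.31.1 gave the same 2679. Distances ran between peak edges, and place used GENCODE M21, with the start of every annotated transcript as a TSS. Sequence measures used 150 bp to either side of the summit. Code was tested on simulated data. Members, lists and tests were chosen with earlier results of these data known. Named were sites found in all 3 replicates (1 of the 3 is not reported here), the 10 strongest, the 10 strongest promoter sites with 2 supporting replicates, the 5 nearest to and 5 farthest from BRG1 among those, genes with 4 sites, listed genes with a promoter site, and *Dio2*. Alternatives were stricter or wider cutoffs, other overlaps, promoter distances, windows and gene sets, and each replicate left out.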

Additional observations from a re-analysis of the deposited data

How the results depend on the processing

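The number of sites was 1098 at a −log10 q of 5 or more, 758 at a fold enrichment of 4 or more, 4229 when BRG1 had to cover 50% of the peak, and 135 with support by 2 replicates. Leaving out a PBRM1 replicate gave 1534 (without replicate 2) to 2089 (without replicate 1). Their promoter share was 24.0% at that q, 23.9% at 50% cover, 17.4% with no BRG1 peak within 1000 bp, 28.1% with 2 replicates, 14.4% and 33.9% for promoters of 1000 and 5000 bp, and 14.3% with protein-coding genes only. Against shared peaks, the promoter difference was negative under each of the alternatives tried, from −47.8 points (all supported shared peaks) to −9.30 (without replicate 1), and −16.4 when sites within 1000 bp of BRG1 were left out, which was added after the data were seen. The intergenic difference turned to −1.61 without replicate 1, was 2.31 without replicate 3 and reached 15.6 against all supported shared peaks. Against BRG1 peaks without PBRM1, the promoter difference was −1.20 with promoters of 1000 bp and −0.736 to 1.01 with 1 library left out, and the TSS distance −490 to 560 bp likewise. With the replicate block the promoter difference was the same 0.010 points (exact p = 1), as the block leaves a mean difference unchanged. Its sign-flip test of 3 pairs cannot give a p-value under 0.25, so it could move no result past a usual threshold. The replicate numbers name no shared animal or batch. Of 73 tested differences and 176 values under alternatives, 65 and 129 kept their direction or stayed within their error. These counts include settings that could not change a value, such as the promoter distance for the number or width of the sites. A main difference of 0, as for the repeat-masked share against BRG1 peaks without PBRM1, always counted as kept. The counts therefore overstate how stable the results are. Depth limits these data: a site missed by a replicate, or by BRG1, may lie below detection there. The causes of these changes were not tested.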

Other observations

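The rule applied to chromosome X gave 35 PBRM1 peaks without BRG1 among 607 with replicate support, and on chromosome Y 0 of 6. Neither chromosome entered the values above.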
